A study of Mus musculus with 9 samples.

Results

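The comparison set splenic plasma cells of 3 DH-LMP2A mice against those of 3 wild-type (WT) mice, across the genes outside the immunoglobulin heavy, kappa and lambda loci. Of 14199 genes with enough reads to be tested, 259 were immunoglobulin genes and the remaining 13940 are described here. The 6 libraries are part of a series of 9. The other 3, from mice carrying a human-derived light chain, entered the filter on low counts, the scaling and the estimate of spread, but not the contrast. In DH-LMP2A mice the membrane protein LMP2A of Epstein-Barr virus takes the place of the immunoglobulin heavy chain, and the light chains are ordinary. WT mice carry neither change. Every mouse of both groups was 3 months old, had not been immunized and was of a mixed C57/BL6, 129/SV and BALB/c background. Each library holds the CD138-positive cells of 1 spleen, selected on magnetic beads to a stated purity above 80%, so the fraction was not pure. The share of each strain in each mouse is not given in the sources used here, and the effects of genotype and of strain segments carried by chance in 1 group cannot be told apart.

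Plasma cells are the antibody-secreting end stage of the B cell lineage. They lose most of the B cell programme, enlarge the endoplasmic reticulum (ER) under the transcription factors Blimp1 (the product of Prdm1), Irf4 and Xbp1, and fold and export immunoglobulin in large amounts. LMP2A carries a cytoplasmic tail that recruits the kinases Lyn and Syk and so stands in for the tonic signal of the B cell receptor, which lets B cells mature without a heavy chain. A plasma cell of this kind has light chains to secrete but no complete antibody, which is why the secretory pathway, the B cell receptor machinery and the stress pathways were described first.

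The heavy chain served as the check on the labels. The heavy-chain constant genes held 24.4 ± 2.62% (SD, n = 3) of all counts in WT and 1.12 ± 0.0328% (SD, n = 3) in DH-LMP2A. Ighm, the mu constant gene, stood at 168600, 154300 and 184300 CPM (counts put on the scale of a common, TMM-adjusted library total) in WT mice 1, 2 and 3 and at 9856, 9365 and 10030 CPM in DH-LMP2A mice 1, 2 and 3. Immunoglobulin genes of all kinds took 49.2 ± 5.94% of the counts in WT and 29.1 ± 2.99% in DH-LMP2A (SD, n = 3 each; exact 2-sided permutation p = 0.1, the smallest that 3 against 3 allows). Total counts lay between 18484303 and 21558128, and 3 counts, taken as the floor of detection, corresponded to 0.127 to 0.191 CPM. DH-LMP2A mouse 3 stood apart from its group. In it 959 genes lay at least 2-fold away from the mean of the other replicates (0.5 CPM added), against 212 and 309 for DH-LMP2A mice 1 and 2. Xist lay between 494.7 and 923.6 CPM in WT mice 1 and 3 and DH-LMP2A mice 1 and 2 and at or below 4.49 CPM in the remaining library of each group, so the groups had the same make-up by sex.

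Outside the immunoglobulin loci, 1568 of 13940 genes (11.2%) passed an adjusted p of 0.05 in edgeR's quasi-likelihood test. In DH-LMP2A 687 of them (4.93% of the genes tested) were higher and 881 (6.32%) lower. The libraries of the groups did not overlap for 1565 of the 1568, and for 4996 (35.8%) of all genes tested. A change of at least 2-fold was found for 399 higher and 675 lower genes. The total was 764 without DH-LMP2A mouse 1 and 845 without WT mouse 2. The higher genes numbered 370, 454 and 365 without DH-LMP2A mouse 1, WT mouse 1 and WT mouse 2, and the lower genes 394 and 480 without DH-LMP2A mouse 1 and WT mouse 2. With scaling by library size alone, which counts the immunoglobulin reads, the median of all genes moved up by 0.34 on the log2 scale and 84.4% of the calls were higher, against 43.8% with the scaling used here. Directions are therefore given relative to the bulk of the genes.

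**Figure D1:**
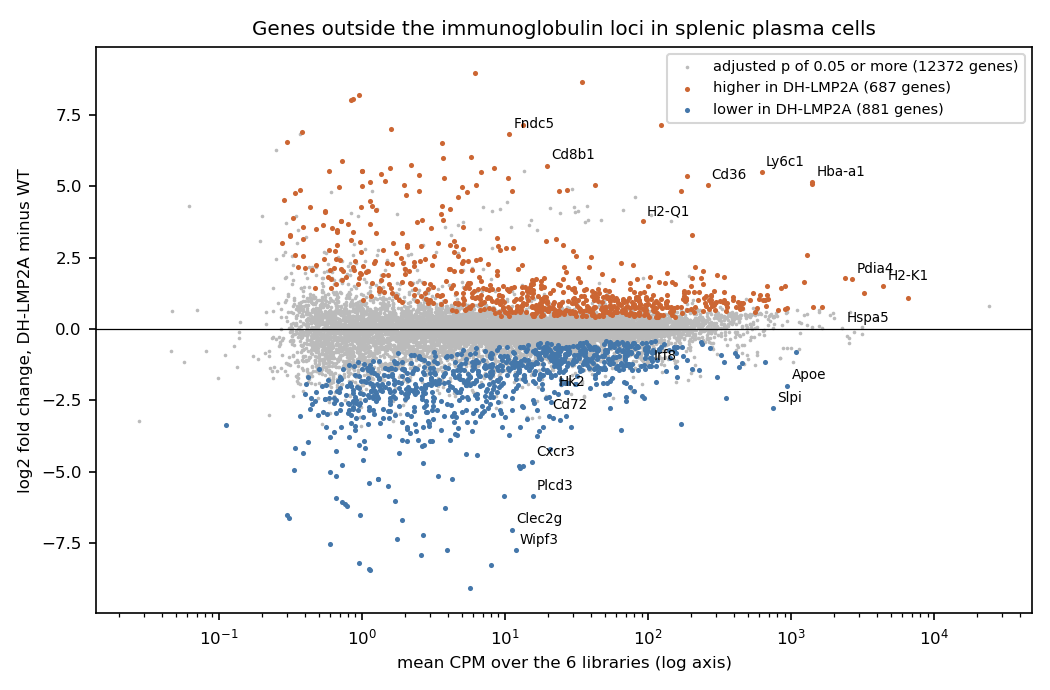
Each point is 1 gene outside the immunoglobulin loci, with its mean CPM over the 6 libraries on a log axis and its fitted log2 fold change (DH-LMP2A minus WT). The 687 higher genes (orange) and 881 lower genes (blue) span the whole range of levels, and Ly6c1, Cd36, H2-K1 and the globin gene Hba-a1 are among the abundant genes that were higher.

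Gene lists covering plasma cell, B cell, secretory, stress, cell cycle, signalling and metabolic functions and 9 other cell types were read against these shares. They number 40, and 35 had at least 1 member past the threshold. None of the 56 nuclear subunits of oxidative phosphorylation, 38 proteasome subunits or 23 aminoacyl-tRNA synthetases tested passed it, and the medians of their log2 differences were 0.01, -0.02 and 0.04. With scaling by library size alone 17, 10 and 6 of them were called higher and none lower.

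**Figure D2:**
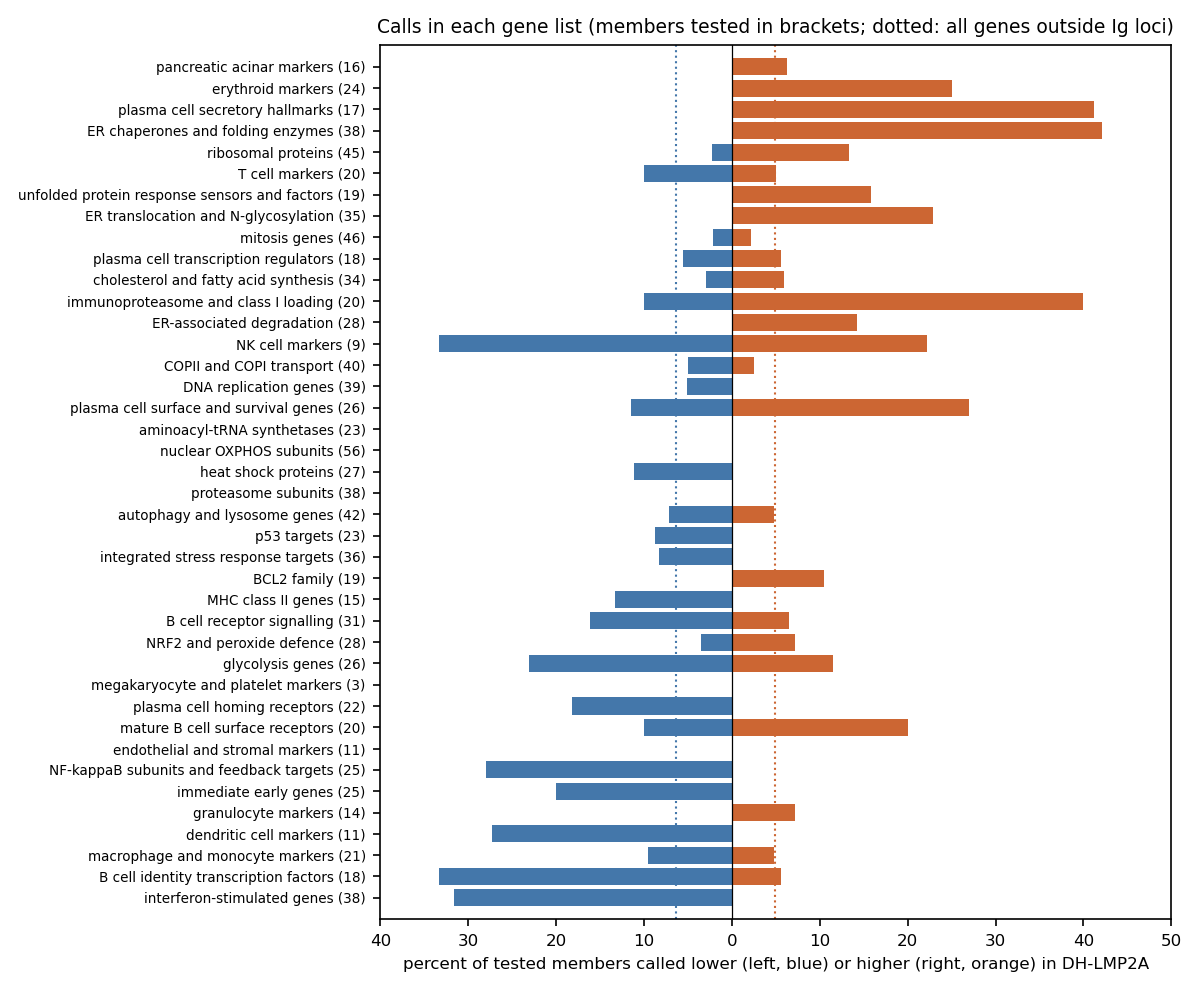
For each list, the percent of its tested members (number in brackets) that passed the threshold as lower (left, blue) or higher (right, orange) in DH-LMP2A, ordered by the median log2 difference of the list. The dotted lines mark 4.93% higher and 6.32% lower, the shares over all 13940 genes; ER chaperones and secretory hallmarks extend farthest to the right and interferon-stimulated genes lie at the bottom.

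The folding machinery of the ER was higher in DH-LMP2A plasma cells. Of 38 chaperones and folding enzymes tested, 16 rose and none fell, against 4.93% and 6.32% of all genes, and the median log2 difference of the list was 0.53, against -0.0047 for all genes. With scaling by library size alone the higher counts were 25 here, 24 for translocation and N-glycosylation, 13 for ER-associated degradation, 9 for the unfolded protein response and 12 for the secretory hallmarks, each with none lower. The members that rose include the disulfide isomerases Pdia4, Pdia6, Pdia3, Erp44 and Txndc12, the oxidases Qsox1 and Ero1lb, the prolyl isomerases Ppib, Fkbp2 and Fkbp11, the ER form of Hsp90 (Hsp90b1) and the nucleotide exchange factor Sil1, which resets the chaperone BiP. Pdia4 (chr6:47796141-47813430, GRCm38) read 1024, 1028 and 1648 CPM in the WT mice and 4708, 3615 and 4026 CPM in the DH-LMP2A mice. All DH-LMP2A libraries lay above all WT libraries, and the log2 difference was 1.74 ± 0.25 (SE; adjusted p = 0.0023). Pdia6 read 499, 565 and 750 CPM in WT against 2147, 1639 and 1835 CPM, a log2 difference of 1.63 ± 0.21 (adjusted p = 0.0012). Sil1 read 64.9, 72.4 and 96.7 CPM in WT against 252.5, 199.9 and 240.8 CPM, a log2 difference of 1.57 ± 0.19 (adjusted p = 0.00083). In each of these genes WT mouse 3 was the highest WT library and DH-LMP2A mouse 2 the lowest DH-LMP2A library.

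BiP itself, encoded by Hspa5 and the most widely used sign of an unfolded protein response, gave 1981, 1689 and 3060 CPM in WT and 2581, 2008 and 2336 CPM in DH-LMP2A. The groups overlapped and the log2 difference was 0.04 ± 0.26 (adjusted p = 0.95). Among the other members that did not pass, Calr (calreticulin) differed by 0.61, Canx (calnexin) by 0.42, Dnajc3 by 0.37, Creld2 by 0.46 and Txndc5 by -0.09 on the log2 scale. The count of 16 fell to 9 without DH-LMP2A mouse 1, 10 without WT mouse 1 and 9 without WT mouse 2, and it was 13 with the level of other-cell markers as a covariate. Hsp90b1, Fkbp2 and Fkbp11 lost their call without DH-LMP2A mouse 1, WT mouse 1 or WT mouse 2. Of the fits that left out 1 library, Pdia3 passed only in that without WT mouse 3. Pdia4, Pdia6, Erp29, Ppib, Qsox1, Pdia3 and Hsp90b1 share exon sequence with another annotated gene on 1 of the strands, and their values are uncertain to that extent since the strand setting of the counting is not stated.

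**Figure D3:**
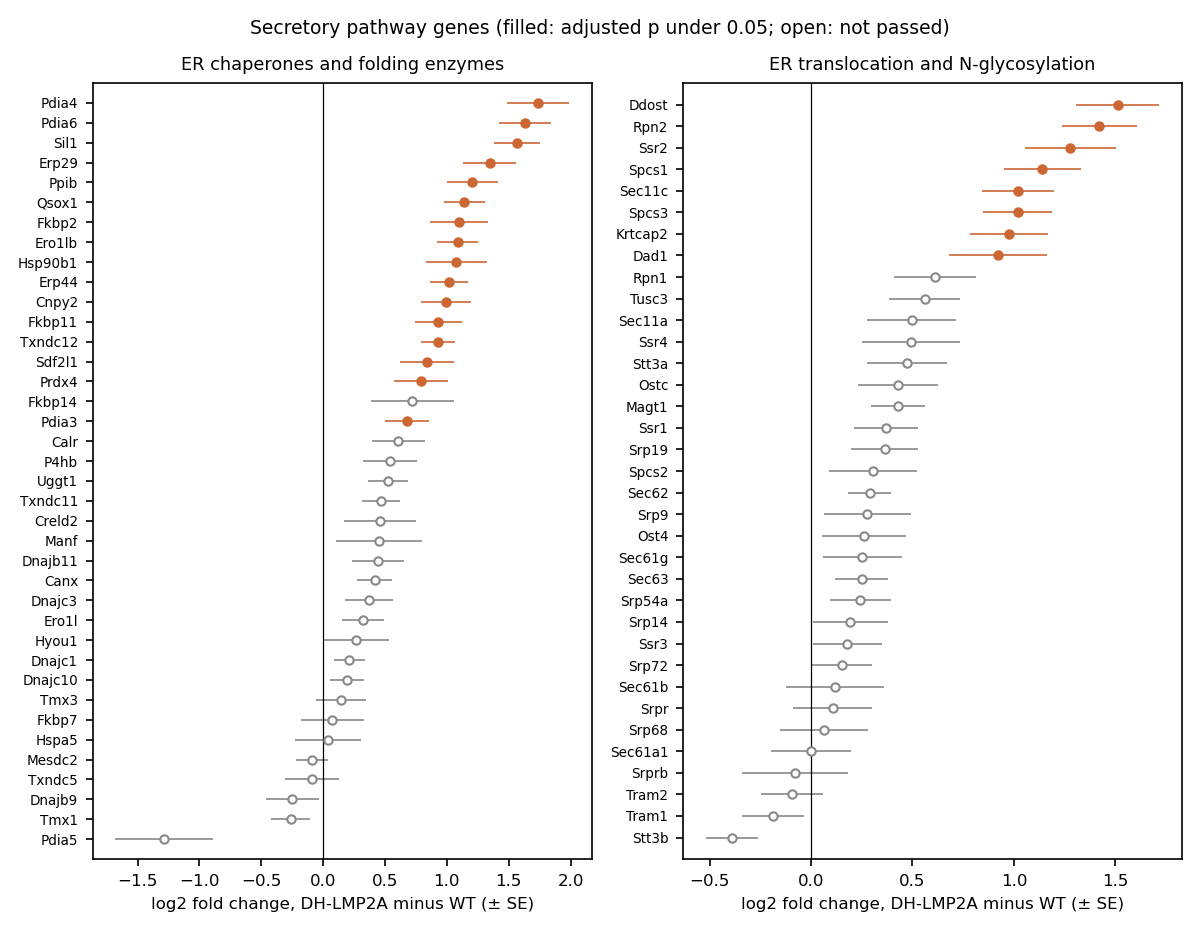
Log2 fold change (DH-LMP2A minus WT) with its standard error for each tested member of the ER folding list (left) and of the translocation and N-glycosylation list (right). Filled points passed an adjusted p of 0.05; all filled points lie to the right of 0, Pdia4 (1.74) and Ddost (1.51) lead the lists and Hspa5 (0.04) lies near 0.

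The steps that bring a chain into the ER and trim it were represented by a smaller share. Of 35 genes of translocation and N-glycosylation 8 rose and none fell, against 4.93% and 6.32% of all genes. Those that rose include Ddost, Rpn2, Dad1 and Krtcap2, subunits of the oligosaccharyltransferase that attaches N-glycans, and Spcs1, Spcs3 and Sec11c, subunits of the signal peptidase. Ddost read 295.2, 312.6 and 448.4 CPM in WT against 1101, 868.7 and 1043 CPM (log2 difference 1.51 ± 0.20, adjusted p = 0.0017). The catalytic subunits Stt3a and Stt3b did not pass, with log2 differences of 0.47 and -0.39, nor did the channel subunit Sec61a1, at -0.00. The call of Dad1 was lost without any library other than WT mouse 3, and that of Krtcap2 without DH-LMP2A mouse 1.

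ER-associated degradation removes chains that fail to fold. Of its 28 genes 4 rose and none fell, against 4.93% and 6.32% of all genes. Those that rose were the sugar-reading members Erlec1, Os9, Edem1 and Edem2. Edem2 read 356.2, 410.4 and 655.3 CPM in WT against 1478, 1192 and 1388 CPM (log2 difference 1.51 ± 0.25, adjusted p = 0.0042), and Erlec1 rose by 1.61 ± 0.17 (adjusted p = 0.00039). The ubiquitin ligase Syvn1 and the channel component Derl3 did not pass, at -0.12 and 0.33. Edem1 lost its call when any single library other than WT mouse 3 was left out. Of 40 genes of COPII and COPI vesicle transport 1 rose and 2 fell, and with scaling by library size alone 15 rose and 1 fell. Sec16b and Kdelr3 fell in DH-LMP2A, with log2 differences of -3.02 to -2.19 and -2.55 to -1.97 over the settings. Sec16b passed in 0 and Kdelr3 in all 6 of the fits without 1 library.

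Among 19 sensors and factors of the unfolded protein response 3 rose and none fell, against 4.93% and 6.32% of all genes. Those that rose were the sensor Ern1 (the kinase and nuclease IRE1 alpha), the cofactor Sdf2l1 and the protease Mbtps1. Their log2 differences were 0.79, 0.84 and 0.43, and the count was 0 or 1 when any single library other than WT mouse 3 was left out, and 2 without that one. It was 0 with the level of other-cell markers as a covariate. The transcription factor Xbp1 read 1166, 1944 and 2033 CPM in WT and 2620, 1971 and 2155 CPM in DH-LMP2A, overlapping groups with a log2 difference of 0.39 ± 0.25 (adjusted p = 0.37). Ddit3, which encodes CHOP of the terminal stress response, differed by 0.11 ± 0.21 (adjusted p = 0.81). It shares exon sequence with a gene on the opposite strand.

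Some ER chaperone genes are known to carry the ER stress element (ERSE), a CCAAT box followed after 9 bases by CCACG, to which ATF6 and the spliced form of Xbp1 bind. The element was looked for on both strands in the 250 bases before the start of each gene in RefSeq's promoters on GRCm38.p6. It was found in 18 of the 9680 tested genes that matched a promoter (0.186%) and in 7 of the 30 matched members of the ER folding list (23.3%). Among the 13 of those that rose it was present in 2 (15.4%), and among the 17 that did not pass in 5 (29.4%). The elements of genes that rose and genes that did not are shown with their flanks (for Hspa5 the element alone), 5′ to 3′ on the strand of the gene, with the element in capitals (in its reverse complement for Calr and for the second match of Hsp90b1).
Pdia6, higher, chr12:17266479-17266521 (+): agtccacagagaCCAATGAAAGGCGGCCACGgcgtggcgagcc
Hsp90b1, higher, chr10:86705521-86705668 (-): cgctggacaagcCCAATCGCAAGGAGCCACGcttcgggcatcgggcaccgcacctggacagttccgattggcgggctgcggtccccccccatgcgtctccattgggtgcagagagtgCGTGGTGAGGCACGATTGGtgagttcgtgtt
Hspa5, not passed, chr2:34772025-34772043 (+): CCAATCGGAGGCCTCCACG
Calr, not passed, chr8:84847063-84847105 (-): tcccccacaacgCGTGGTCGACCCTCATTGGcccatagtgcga
Dnajc3, not passed, chr14:118937815-118937857 (+): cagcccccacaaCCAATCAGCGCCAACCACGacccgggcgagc
A match is a run of letters and not a measured binding site.

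Genes that mark the secretory state of plasma cells were higher as well. Of 17 such hallmarks 7 rose and none fell, against 4.93% and 6.32% of all genes, and the median log2 difference was 0.71. Mzb1, an ER protein that helps IgM and the joining chain to assemble, read 810, 983 and 1384 CPM in WT against 3950, 3236 and 3895 CPM in DH-LMP2A, with a log2 difference of 1.80 ± 0.25 (adjusted p = 0.0021). Jchain, the joining chain itself, read 15680, 19910 and 17890 CPM against 27240, 27010 and 38650 CPM. Those libraries did not overlap either, but the difference of 0.80 ± 0.33 did not pass (adjusted p = 0.16). The count of 7 was 4 without DH-LMP2A mouse 1, WT mouse 1 or WT mouse 2.

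Of 18 transcription regulators of plasma cells 1 rose and 1 fell, a share close to the 11.2% of all genes called. Prdm1 read 234.6, 128.9 and 189.9 CPM in WT and 382.1, 370 and 354.2 CPM in DH-LMP2A and rose by 0.999 ± 0.22 (adjusted p = 0.016), a call lost without DH-LMP2A mouse 1. Pou2f2, which encodes the B lineage factor Oct2, fell by 0.88 (adjusted p = 0.018; not past the threshold without DH-LMP2A mouse 1, WT mouse 1 or WT mouse 2). The other 16 regulators did not pass, among them Irf4 at 0.52 ± 0.28 (adjusted p = 0.29). Sdc1, which encodes the CD138 used for the selection, read 302.2, 394 and 536.7 CPM in WT and 581.5, 478.8 and 667.3 CPM in DH-LMP2A (adjusted p = 0.23).

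Calls were more frequent among surface proteins, a difference between lists that was not itself tested. Of 26 surface and survival genes 7 rose and 3 fell, against 4.93% and 6.32% of all genes. Ly6c2, Ly6d, Epcam, the shared interleukin 6 receptor chain Il6st, Slamf7, Cd27 and Cd28 rose. Tnfrsf17, which encodes the survival receptor BCMA, the inhibitory receptor Lag3 and the Fc receptor homolog Fcrl5 fell, and the count of 3 was 0, 1, 1 and 0 without DH-LMP2A mouse 1, DH-LMP2A mouse 2, WT mouse 2 and WT mouse 3. Ly6c1 (chr15:75044018-75048830), which encodes a small lipid-anchored surface protein, read 31.2, 17.4 and 32.6 CPM in WT against 1331, 1167 and 1169 CPM, a mean 45.2-fold higher. Its log2 difference was 5.50 ± 0.34 (adjusted p = 1.0e-05). Its neighbour Ly6c2, read at 446.9, 204 and 453.8 CPM in WT and 2399, 2163 and 2107 CPM in DH-LMP2A, rose by 2.59 ± 0.36 (adjusted p = 0.002). The related Ly6a went the other way and fell by 1.33 (adjusted p = 0.021), and of the 6 fits without 1 library only that without WT mouse 2 kept the call. Ly6 genes have similar copies, and reads can be split between them.

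Tnfrsf17 read 41.3, 47.2 and 59.5 CPM in WT and 21.4, 15.6 and 29 CPM in DH-LMP2A, without overlap, a log2 difference of -1.16 ± 0.25 (adjusted p = 0.016; lost without DH-LMP2A mouse 1 or WT mouse 3). Cd27 read 1.37, 1.79 and 1.85 CPM against 4.06, 5.01 and 15.9 CPM, with DH-LMP2A mouse 3 far above the rest of its group. Its call was lost without any 1 of the WT libraries. Slamf7, a target of myeloma antibodies, rose by 0.94 ± 0.18 (adjusted p = 0.0092). Cd28 did not pass without WT mouse 2, and of the fits without 1 library Lag3 passed only in that without DH-LMP2A mouse 3 and Fcrl5 only in that without WT mouse 1.

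Of 22 homing genes, receptors that steer plasma cells to tissues, 4 fell and none rose, against 6.32% and 4.93% of all genes. Cxcr3 (chrX:101731535-101734269), the receptor for interferon-induced chemokines, read 29.1, 22.6 and 37.3 CPM in WT and 0.635, 1.16 and 1.74 CPM in DH-LMP2A. Its log2 difference of -4.65 ± 0.43 (adjusted p = 0.00016) passed in all 6 fits that left out 1 library. Ccr10, a receptor of IgA plasma cells in mucosal tissue, fell by 1.97 and Itgb7, the beta chain of the gut-homing integrin, by 1.83. Itga6 fell by 1.16. The count of 4 was 1, 1, 2 and 2 without DH-LMP2A mouse 1, DH-LMP2A mouse 2, WT mouse 2 and WT mouse 3, and the chemokine receptor Cxcr4, which holds plasma cells in bone marrow, did not pass at 0.18. Ccr10 and Itgb7 were not called without DH-LMP2A mouse 1, DH-LMP2A mouse 2, WT mouse 2 or WT mouse 3, nor Itga6 without DH-LMP2A mouse 1, DH-LMP2A mouse 2 or WT mouse 1. Tbx21, the T-bet gene listed among NK cell markers, read 2.48, 4.44 and 5.99 CPM against 0.212, 0.0928 and 0.961 CPM (log2 difference -3.33 ± 0.67, adjusted p = 0.012; lost without DH-LMP2A mouse 1).

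**Figure D4:**
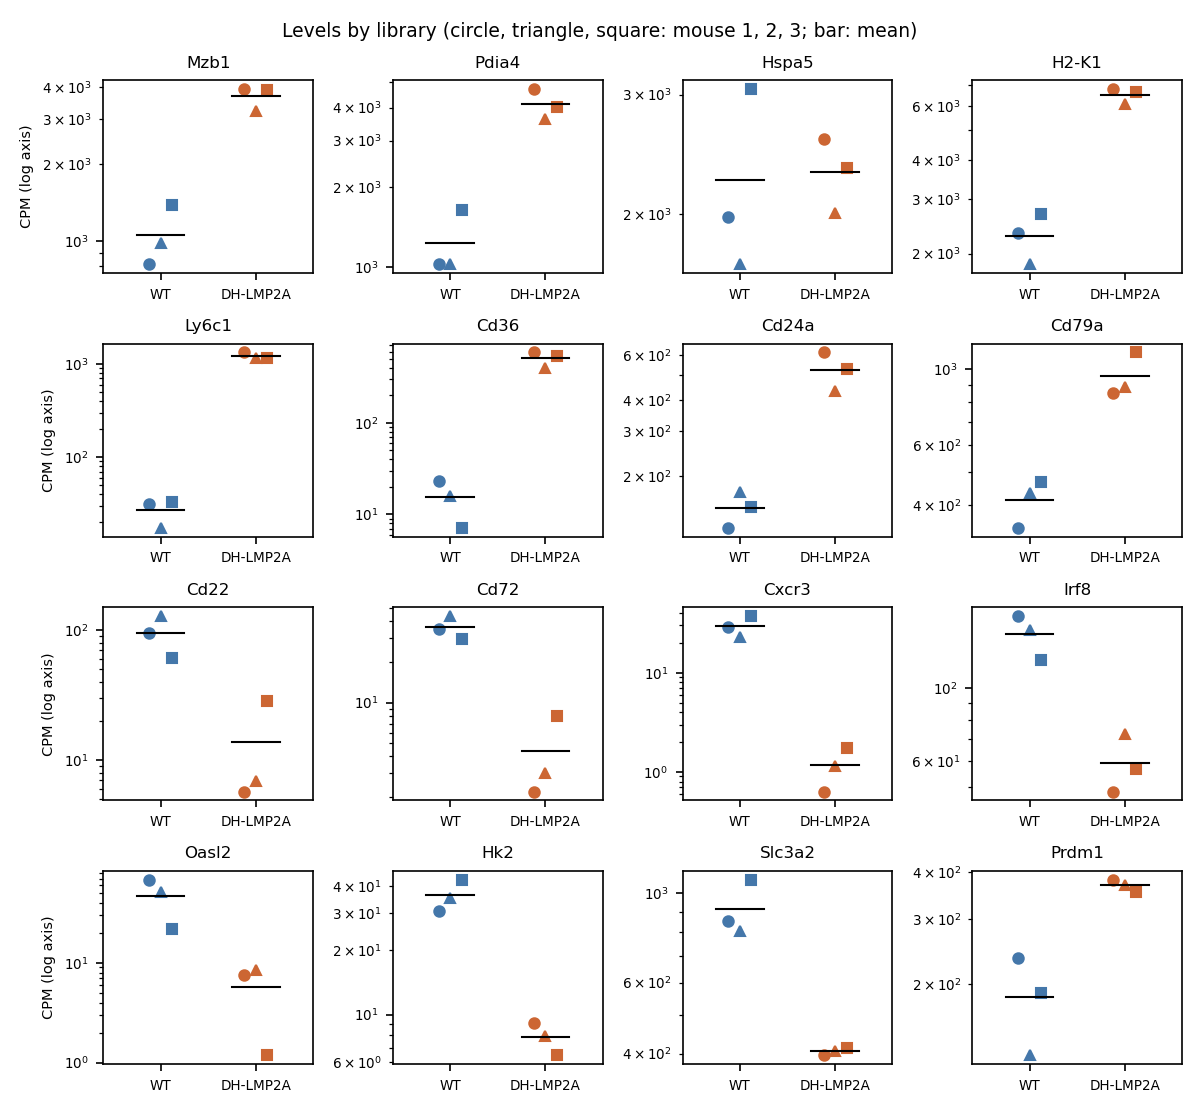
CPM on a log axis for 16 genes in each library, WT in blue and DH-LMP2A in orange, with circle, triangle and square for mice 1, 2 and 3 and a bar at the mean. The groups overlap for Hspa5 and for none of the other 15, and DH-LMP2A mouse 3 is the highest of its group for Cd22, Cd72 and Cxcr3.

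Of 31 signalling genes of the B cell receptor 2 rose and 5 fell, against 4.93% and 6.32% of all genes. Those that rose were the receptor chain Cd79a and the complement receptor Cr2, which amplifies the signal. The 5 that fell were the inhibitory receptors Cd22, Cd72 and Fcgr2b, the phosphatase Ptpn6 (SHP-1) that those receptors recruit, and the kinase Lyn that phosphorylates them. Cd22 (chr7:30865402-30880342) read 94.6, 127.8 and 61.3 CPM in WT and 5.75, 6.96 and 28.7 CPM in DH-LMP2A (log2 difference -2.78 ± 0.58, adjusted p = 0.014). Cd72 (chr4:43446462-43454628) read 34.7, 43.6 and 29.4 CPM against 2.2, 3.02 and 7.92 CPM (log2 difference -3.04 ± 0.46, adjusted p = 0.0031). DH-LMP2A mouse 3 was the highest of its group for both genes and still below every WT library. Both calls held without any single library.

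Cd79a read 343.7, 434 and 469.2 CPM in WT and 850.3, 884.2 and 1117 CPM in DH-LMP2A, a log2 difference of 1.19 ± 0.25 (adjusted p = 0.015; lost without DH-LMP2A mouse 3, WT mouse 1 or WT mouse 2). Its partner Cd79b did not pass, at 0.42 ± 0.23 (adjusted p = 0.29). Lyn, Syk and Btk are kinases that LMP2A engages. Lyn read 227.7, 222.5 and 157.2 CPM in WT and 114.5, 138.4 and 85.4 CPM in DH-LMP2A and fell by 0.84 (adjusted p = 0.047), a call kept in 2 of the 6 fits that left out 1 library, those without DH-LMP2A mouse 2 or WT mouse 3. Syk differed by -0.16 ± 0.14 (adjusted p = 0.53) and Btk by -0.19 ± 0.12 (adjusted p = 0.38). The lower count of 5 was 3 without DH-LMP2A mouse 1 or WT mouse 1, the higher count of 2 was 0 without DH-LMP2A mouse 3 or WT mouse 1 and 1 without DH-LMP2A mouse 1 or WT mouse 2, and the median of the list, -0.19, became 0.149 with scaling by library size alone. Cr2 did not pass without DH-LMP2A mouse 1, DH-LMP2A mouse 3 or WT mouse 1, and Fcgr2b passed only without WT mouse 2.

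The transcription factors of B cell identity were lower. Of 18 tested, 6 fell and 1 rose, against 6.32% and 4.93% of all genes, and the median log2 difference was -0.98. Irf8, a factor of B and myeloid cells, read 165.3, 150.4 and 121.1 CPM in WT and 48.4, 72.2 and 56.5 CPM in DH-LMP2A (log2 difference -1.30 ± 0.20, adjusted p = 0.0032). Spi1, the PU.1 gene, fell by 0.97 ± 0.16 (adjusted p = 0.0044). Bcl6 and Bach2, which hold back plasma cell differentiation, fell by 1.61 and 1.83, Ciita, the switch of MHC class II, by 1.90 and the inhibitor Id3 by 2.20. Foxp1 rose by 0.74, a call lost without any library other than DH-LMP2A mouse 2. Pax5 read 64.3, 78.8 and 30.5 CPM against 13.9, 12.9 and 43.4 CPM, and DH-LMP2A mouse 3 overlapped the WT libraries (log2 difference -1.31, adjusted p = 0.18). The count of 6 was 2, 3 and 2 without DH-LMP2A mouse 1, DH-LMP2A mouse 2 and WT mouse 2, and 1 with scaling by library size alone. Under that scaling 2 members rose and the median was -0.66. DH-LMP2A mouse 1 and WT mouse 2 were each needed for the calls of Bcl6, Bach2, Ciita and Id3, DH-LMP2A mouse 2 for the last 3 of these, WT mouse 1 for Bach2 and WT mouse 3 for Ciita.

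Of 20 surface receptors of mature B cells 4 rose (Cd24a, Fcrla, Ms4a1 and Fcrl1) and 2 fell (Cd180 and P2rx4). The shares over all genes were 4.93% and 6.32%. Cd24a, a small glycoprotein of immature and germinal centre B cells, read 125, 173.2 and 151.1 CPM in WT and 614.4, 431.9 and 528.7 CPM in DH-LMP2A (log2 difference 1.81 ± 0.20, adjusted p = 0.00057). Fcrla, an ER-resident Fc receptor-like protein of B cells, rose by 1.19 ± 0.19 (adjusted p = 0.0041). Ms4a1, which encodes CD20, read 64, 85.4 and 48 CPM against 156.4, 122.9 and 172.2 CPM and rose by 1.19 ± 0.26 (adjusted p = 0.018; lost without DH-LMP2A mouse 1, WT mouse 1 or WT mouse 3). Cd180 fell by 1.91. Without WT mouse 1 or WT mouse 3 the higher count of 4 was 2, and the lower count of 2 was 0 without DH-LMP2A mouse 1, DH-LMP2A mouse 2 or WT mouse 2 and 1 without WT mouse 1 or WT mouse 3. Fcrl1 passed only without DH-LMP2A mouse 1, and P2rx4 in none of the 6 fits.

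Of 15 MHC class II genes, Ciita and the peptide-exchange subunit H2-DMb1 fell and none rose, against 6.32% and 4.93% of all genes. H2-Aa, at 481.7, 671.6 and 571.8 CPM in WT and 349.9, 502.3 and 555.9 CPM in DH-LMP2A, did not pass (adjusted p = 0.41). The count of 2 was 1 without DH-LMP2A mouse 1, DH-LMP2A mouse 2, WT mouse 2 or WT mouse 3 and 0 with scaling by library size alone. In bulk libraries such as these, fewer cells of a type and less RNA per cell cannot be told apart. The B cells that a CD138 selection can carry along were not measured on their own.

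Of 20 genes of class I loading and the immunoproteasome 8 rose, 2 fell and 10 did not pass, where 4.93% of all genes were higher and 6.32% lower. With scaling by library size alone 10 rose and none fell. H2-K1, a classical class I chain, read 2327, 1847 and 2686 CPM in WT and 6817, 6073 and 6666 CPM in DH-LMP2A (log2 difference 1.51 ± 0.22, adjusted p = 0.0024), and H2-D1 rose by 1.28 ± 0.20 (adjusted p = 0.0034). Tapbp, the chaperone tapasin that loads them, rose by 1.03 ± 0.14 (adjusted p = 0.0021). Nlrc5, the activator of class I transcription, fell by 1.01, and the peptide transporter genes Tap1 and Tap2 and the immunoproteasome genes Psmb8 and Psmb9 did not pass, at -0.20, -0.10, -0.42 and -0.18. The call of Nlrc5 was lost without DH-LMP2A mouse 1, DH-LMP2A mouse 3 or WT mouse 1.

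Other genes of the H2 complex were chosen for mention after their values were seen. H2-Q1 (chr17:35320405-35325099) read 11.6, 11.1 and 14.9 CPM in WT and 173.6, 167 and 170.8 CPM in DH-LMP2A, a log2 difference of 3.77 ± 0.15 (adjusted p = 1.1e-06). H2-Q2 rose by 3.14, and H2-Q4 and H2-Q6 by 0.92 and 0.95, while H2-Q7 fell by 0.91, a call kept only by the fit without WT mouse 2 among the 6 that left out 1 library. The class I-like pseudogene Gm10499 read 1.77, 1.73 and 1.72 CPM against 250.2, 221.4 and 265.2 CPM, with a spread within each group far below the difference. Of 139 genes tested between the outermost H2 genes (chr17:33974831-37483552), 33 passed (23.7%), 21 higher and 12 lower, against 11.2% of all genes. H2 genes differ in sequence between strains and have near-identical copies, so their values are uncertain, and the haplotype of each mouse was not tested.

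Calls were not evenly spread over the chromosomes. The share called was 15.4% on chromosome 4 and 14.8% on chromosome 6, against 7.96% on chromosome 12, which holds the heavy-chain locus, and 8.44% on the X. Within 5 Mb of the heavy-chain locus 7 of 73 genes passed (9.59%), and within 5 Mb of the kappa locus 6 of 54 (11.1%). Windows picked after seeing the data reached 23.9% on chromosome 4 (130 to 140 Mb), 23.5% on chromosome 6 (120 to 130 Mb) and 20.3% on chromosome 15 (70 to 80 Mb). None of the 17 mitochondrial genes tested passed.

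Among the genes with the largest fitted changes, Wipf3, Fblim1 and Eps8l1 had at most 3 counts in any DH-LMP2A library. Wipf3, an actin regulator, read 25.9, 22.5 and 22.4 CPM in WT and 0.127, 0.0928 and 0.0915 CPM in DH-LMP2A, at or below 3 counts per library. The ratio of summed counts was 227 (95% exact interval 110 to 566, counting error only). The same ratio was 356 (121 to 1730) for Fblim1, which encodes a protein of cell-matrix adhesions, and 783 (140 to 31000) for Eps8l1, a relative of an actin-capping protein, both higher in WT. Plcd3, a phospholipase C, read 35.4, 18 and 38.9 CPM against 0.465, 0.51 and 0.595 CPM, and its log2 difference was -5.86 ± 0.42 (adjusted p = 2.8e-05). Clec2g, Sirpb1b, Osbpl3, Sorcs2, Aoah, Aldh1a2 and Sfn completed the lowest 12 with Cxcr3, at log2 differences of -7.03, -4.87, -4.81, -4.79, -4.40, -4.37 and -4.22. Clec2g and Sirpb1b belong to families of similar genes.

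At the other end, Cd36 (chr5:17781690-17888801), a scavenger receptor for fatty acids and lipoproteins, read 23.2, 15.8 and 7.13 CPM in WT and 586.6, 401.1 and 529.3 CPM in DH-LMP2A, a mean 32.9-fold higher (log2 difference 5.03 ± 0.49, adjusted p = 0.00022). It lies just outside the 12 highest and was chosen after its values were seen. Cd8b1, the beta chain of the CD8 coreceptor, read 0.557, 0.816 and 0.828 CPM against 37.4, 29.5 and 49.4 CPM (log2 difference 5.72 ± 0.31, adjusted p = 5.2e-06). The summed level of the 20 T cell markers, of which it is one, was 135.5 to 198.9 CPM in WT and 115.8 to 246.9 CPM in DH-LMP2A, with overlapping groups. Fndc5, the precursor of irisin, read 0.355, 0.102 and 0.0637 CPM against 19.7, 20.3 and 23.5 CPM, and Pianp, a membrane protein that pairs with inhibitory receptors, 0.709, 0.612 and 0.191 CPM against 20.7, 19.4 and 21.4 CPM. Serpine2, Zfp365 and Prelid2 rose by 5.49, 6.04 and 5.04. The remaining 5 of the highest 12 were Ctrc, a pancreatic protease, and the red cell genes Hba-a1, Hba-a2, Hbb-bs and Alas2.

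Other abundant genes, also chosen after their values were seen, fell. Hvcn1, the voltage-gated proton channel of B cells, read 303.8, 255.9 and 363.2 CPM in WT and 32.6, 36.3 and 23.8 CPM in DH-LMP2A (log2 difference -3.32 ± 0.25, adjusted p = 3.4e-05). Slpi, a secreted protease inhibitor, read 1060, 1416 and 1443 CPM against 194.4, 219 and 156.8 CPM (log2 difference -2.78 ± 0.43, adjusted p = 0.0033). Apoe, the lipid carrier, fell by 1.99 ± 0.34 (adjusted p = 0.0058). Kit, a receptor of early blood cells and mast cells, rose by 3.08 ± 0.25 (adjusted p = 6.1e-05), from 4.86, 3.52 and 3.95 CPM to 30.6, 30.8 and 43.3 CPM.

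Interferon-stimulated genes were lower in DH-LMP2A. Of 38 tested 12 fell and none rose, against 6.32% and 4.93% of all genes. The log2 difference was negative for 37 of the 38, and the median was -1.37 (-1.04 with scaling by library size alone). Those that fell include the transducer Irf9, the antiviral effectors Ifit1, Ifit3, Oas3, Oasl1, Oasl2, Isg15, Bst2, Dhx58 and Samd9l, and the GTPase gene Igtp. Oasl1 read 19.1, 9.13 and 4.46 CPM in WT and 1.56, 1.72 and 1.28 CPM in DH-LMP2A (log2 difference -2.84 ± 0.51, adjusted p = 0.0067). Ifit3 read 82.4, 20.1 and 13.7 CPM against 5.5, 6.22 and 1.6 CPM (log2 difference -3.12 ± 0.74, adjusted p = 0.024; lost without DH-LMP2A mouse 1, DH-LMP2A mouse 3 or WT mouse 1). Irf7 and Mx1 did not pass, at -1.69 (adjusted p = 0.085) and -2.36 (adjusted p = 0.058).

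The spread behind those values was uneven. WT mouse 1 was the highest of the 6 libraries for 34 of the 38 genes and DH-LMP2A mouse 3 the lowest for 33. The libraries of the groups still did not overlap for 28 of the 38, where 18.3% of all genes were lower without overlap. The count of 12 was 7 without WT mouse 1, 8 without DH-LMP2A mouse 1 or 3 and 15 without WT mouse 3. It was 9 with the level of other-cell markers as a covariate and 6 with scaling by library size alone. Bst2 passed only without WT mouse 2 and Dhx58 only without WT mouse 3. Oas3 was called without DH-LMP2A mouse 2 or WT mouse 3, and Oasl2 also without DH-LMP2A mouse 3. Macrophage and monocyte markers summed to 12560, 9889 and 8030 CPM in WT and 8174, 9327 and 4343 CPM in DH-LMP2A, so WT mouse 1 and DH-LMP2A mouse 3 were also the extremes there.

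**Figure D5:**
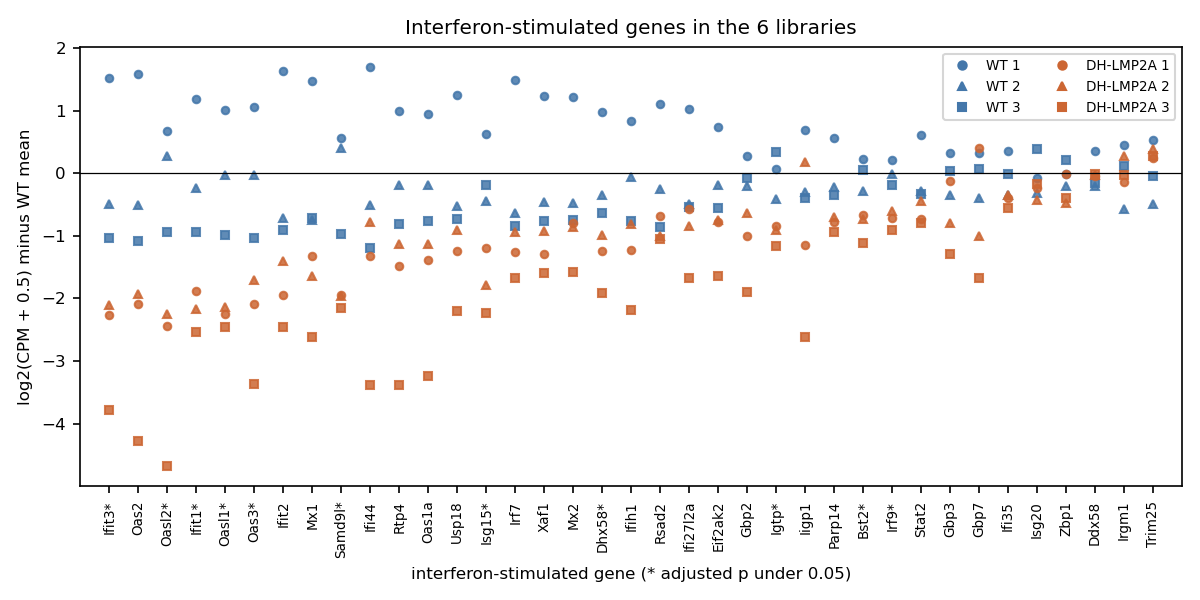
For 37 of the 38 interferon-stimulated genes, log2 (CPM + 0.5) of each library minus the mean of the WT libraries, WT in blue and DH-LMP2A in orange, with circle, triangle and square for mice 1, 2 and 3. WT mouse 1 lies on top for 33 of these and DH-LMP2A mouse 3 at the bottom for 32; stars mark the 11 of them that passed.

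Interferon acts through the interferon-stimulated response element, whose core, TTTC repeated after 2 bases of any kind, was searched on both strands of the same promoter windows. It was present in 330 of 9680 promoters (3.41%), in 13 of the 27 matched interferon-stimulated genes (48.1%), in 6 of the 10 of these that fell (60%) and in 7 of the 17 that did not pass (41.2%). Overlapping matches were merged. The windows of genes that fell show the core in capitals, in its forward form for Ifit1 and Ifit3 and as its reverse complement for Isg15 and Oas3, 5′ to 3′ on the strand of the gene.
Ifit1, chr19:34640773-34640825 (+): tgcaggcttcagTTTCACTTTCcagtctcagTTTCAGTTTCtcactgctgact
Ifit3, chr19:34583361-34583428 (+): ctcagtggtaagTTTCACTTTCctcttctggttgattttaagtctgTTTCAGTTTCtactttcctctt
Isg15, chr4:156200863-156200908 (-): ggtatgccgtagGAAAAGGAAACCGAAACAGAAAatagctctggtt
Oas3, chr5:120777713-120777746 (-): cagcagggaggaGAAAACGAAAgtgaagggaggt

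The median log2 difference of 25 NF-kappaB subunits and feedback targets was -0.52. Of these 7 fell and none rose, against 6.32% and 4.93% of all genes. Those that fell were the alternative-pathway genes Map3k14 (NIK), Traf3, Nfkb2 and Relb, the regulators Tnip1 and Bcl3, and the adhesion gene Icam1. Icam1 read 99.4, 76.4 and 81.1 CPM in WT and 31.5, 42.2 and 26.2 CPM in DH-LMP2A (log2 difference -1.36 ± 0.26, adjusted p = 0.0093). The classical subunits Nfkb1 and Rela did not pass, at -0.02 and -0.08. The count of 7 was 2, 4, 4, 3 and 4 without DH-LMP2A mouse 1, DH-LMP2A mouse 2, WT mouse 1, WT mouse 2 and WT mouse 3, and 1 with scaling by library size alone. Traf3 passed in none of the fits without 1 library, Nfkb2 and Relb only without DH-LMP2A mouse 3, Bcl3 not without DH-LMP2A mouse 1, and Map3k14 neither without that mouse nor without WT mouse 2.

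Of 25 immediate early genes, which respond to receptor signals within minutes, 5 fell and none rose, against 6.32% and 4.93% of all genes. Those that fell were Egr2, Egr3, Nr4a1, Nr4a2 and the phosphatase gene Dusp5. Egr2 read 4.46, 4.28 and 4.33 CPM in WT and 1.1, 0.742 and 0.732 CPM in DH-LMP2A (log2 difference -2.33 ± 0.35, adjusted p = 0.0029), and Nr4a1 fell by 1.08 (adjusted p = 0.033). Fos, Jun and Egr1, also raised by tissue handling, did not pass, at 0.22, 0.73 and 0.11. The count of 5 was 3 without DH-LMP2A mouse 1, WT mouse 1 or WT mouse 2 and 2 with scaling by library size alone. DH-LMP2A mouse 1, WT mouse 1 and WT mouse 2 were each needed for the calls of Egr3 and Nr4a1, with DH-LMP2A mouse 2 for Egr3 and DH-LMP2A mouse 3 for Nr4a1.

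Of 36 targets of the integrated stress response 3 fell (Slc3a2, Gdf15 and Cebpb) and none rose, against 6.32% and 4.93% of all genes. Slc3a2, the heavy subunit of amino acid transporters, read 852.3, 808.5 and 1082 CPM in WT and 396.4, 406 and 413.1 CPM in DH-LMP2A (log2 difference -1.17 ± 0.20, adjusted p = 0.0051). The factor Atf4 differed by 0.00 ± 0.26. The count of 3 was 1 without DH-LMP2A mouse 1. Gdf15 did not pass without DH-LMP2A mouse 1, WT mouse 1 or WT mouse 3, and Cebpb passed only without WT mouse 1. Of 23 p53 targets Fas, the death receptor, and Plk2 fell, by 2.09 ± 0.33 (adjusted p = 0.0035) and 2.25 ± 0.42 (adjusted p = 0.008). That share was close to the 6.32% of all genes that were lower. In the BCL2 family of 19 the death-promoting members Bid and Bmf rose by 1.01 and 1.14, the latter not without DH-LMP2A mouse 3 or WT mouse 2. The share called was close to the 11.2% of all genes. Mcl1, on which plasma cells depend, did not pass at -0.17. Gpx7, an ER peroxidase that feeds oxidative folding, read 0.709, 1.07 and 1.02 CPM against 8.38, 6.12 and 7.32 CPM (log2 difference 2.96 ± 0.27, adjusted p = 0.00016).

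Of 26 glycolysis genes 6 fell and 3 rose, against 6.32% and 4.93% of all genes. Hk2, the inducible hexokinase, read 30.5, 35.4 and 43 CPM in WT and 9.1, 7.93 and 6.45 CPM in DH-LMP2A (log2 difference -2.21 ± 0.27, adjusted p = 0.00087). The lactate exporter Slc16a3 fell by 2.84 ± 0.45 (adjusted p = 0.0038) and Eno1, enolase, by 1.07 ± 0.12 (adjusted p = 0.00065). Pdk1, the kinase that keeps pyruvate out of the mitochondria, rose by 1.42 ± 0.14 (adjusted p = 0.00022), from 26.4, 26 and 20.1 CPM to 57.8, 66 and 69.9 CPM. Gapdh, Pkm and Pgk1 did not pass, at -0.34, -0.00 and -0.03. With scaling by library size alone 3 fell and 5 rose, and the median moved from -0.28 to 0.0594.

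Ribosomal protein genes lay slightly higher, with 6 of 45 past the threshold upward and a median log2 difference of 0.48. Without overlap 41 of the 45 were higher, against 17.5% of all genes. The count of 6 was 0 without DH-LMP2A mouse 1, DH-LMP2A mouse 3, WT mouse 1 or WT mouse 2. It was 2 without DH-LMP2A mouse 2, 3 without WT mouse 3 and 41 with scaling by library size alone. Rpl26 alone fell, from 277.2, 293.1 and 309.3 CPM to 104.9, 104.3 and 119.5 CPM (log2 difference -1.42 ± 0.19, adjusted p = 0.0015). Ribosomal protein genes have many processed copies, which makes single members uncertain. Of 46 mitosis genes Bub1b rose (of the 6 fits, passing only without DH-LMP2A mouse 3) and Pttg1 fell, and of 39 replication genes E2f2 and Mcm6 fell, where 11.2% of all genes were called. The log2 difference was positive for 43 of the 46 mitosis genes (median 0.29), and 11 were higher without overlap, against 17.5% of all genes. With scaling by library size alone 3 mitosis genes and 2 replication genes were called higher and none lower. Mcm6 passed in none of the 6 fits without 1 library, and E2f2 did not pass without DH-LMP2A mouse 1, DH-LMP2A mouse 2, WT mouse 2 or WT mouse 3. Mki67 read 283.3, 218.5 and 257.7 CPM in WT and 469.4, 447 and 312.7 CPM in DH-LMP2A (log2 difference 0.69 ± 0.46, adjusted p = 0.39).

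Markers of other cells differed between the groups, and their part in the results above was not tested beyond the fit with their level as a covariate. That covariate was a single mean of standardized levels over the red cell, T cell, NK cell, macrophage and granulocyte markers. Red cell and granulocyte sums moved in opposite directions, and pancreatic and dendritic markers were left out. The fit therefore cannot stand for the level of each cell type. Red cell markers, 24 genes led by the globins, summed to 66, 228.1 and 386.3 CPM in WT and to 2657, 2724 and 13800 CPM in DH-LMP2A, without overlap, and 6 of 24 rose. Pancreatic acinar markers summed to 163.5, 79.3 and 25.4 CPM in WT and 415, 1037 and 1880 CPM in DH-LMP2A. DH-LMP2A mouse 3 was the highest library for both sums. Granulocyte markers summed to 725.7, 1636 and 827.4 CPM against 492.4, 700.4 and 481.7 CPM, and dendritic cell markers to 362.6, 302.6 and 306.8 CPM against 211, 237.7 and 198.3 CPM. Exact 2-sided permutation tests of these 4 sums gave p = 0.1, the smallest possible, and 0.225 after adjustment over the 9 lists. Of the macrophage and monocyte markers, the lysozyme gene Lyz2 and the Fc receptor gene Fcgr1 fell by 2.42 (not past the threshold without DH-LMP2A mouse 1) and 1.80, and Ly6c2, which plasma cells share, rose. No gene on these lists was at 0 in all 6 libraries.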

How the data were processed

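RNA was sequenced from polyadenylated, strand-marked libraries as paired 75 bp reads, as the labels' protocols state. What the authors deposited is 1 file of unscaled counts of reads for each gene; STAR 2.4.0a, featureCounts in Subread 1.5.0-p3, DESeq2 and the GRCm38 (mm10) build are named in the submitters' processing notes. The strand setting and the handling of reads that map to several places are not given in the sources used here, so genes that share exons or have similar copies are uncertain. Beside those named as such in the report, exons are shared by Alas2, Bach2, Bcl3, Bcl6, Bid, Cd180, Cd22, Cd27, Cd72, Cebpb, Ciita, Ctrc, Dhx58, Eps8l1, Fcgr2b, Foxp1, Gapdh, Gm10499, H2-Q4, Hvcn1, Igtp, Irf7, Irf9, Jun, Krtcap2, Lyn, Map3k14, Nfkb2, Oasl1, Pax5, Pou2f2, Psmb8, Psmb9, Ptpn6, Rpn2, Sec61a1, Sirpb1b, Slamf7, Slpi, Spcs1, Syvn1, Tap1, Tap2, Tapbp, Wipf3 and Xist. The deposited counts were tested with edgeR 4.0.16 in R 4.3.3: filterByExpr, TMM scaling, a quasi-likelihood fit over all 9 libraries and the contrast DH-LMP2A minus WT, with Benjamini-Hochberg adjustment over all 14199 genes. CPM values are TMM-scaled; the SE is the fold change divided by the square root of F. Nothing in the labels says more than that each library is a different mouse, and no replicates agreed within sampling noise.

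The comparison, the 40 lists and the genes named were chosen with earlier results of these data known. Named genes are the 12 highest and 12 lowest called genes with a mean of at least 5 CPM and no overlap. Left out of that ranking were symbols made of Gm and digits (such as Gm10499), symbols ending in Rik or -ps, and clone names. The 4 members of each list with the smallest p, a fixed panel and the 3 highest markers per other cell type were named as well. Other members of the lists, and those said to be, were added after seeing values. Same-numbered libraries had correlations of 0.074, -0.022 and 0.21, and differently numbered ones -0.33 to 0.34. With 3 libraries a group these values cannot show whether the numbers pair mice, and the labels do not say. In simulated data of the 14199 genes, with 200 of them changed, 24% of 2-fold and 83% of 4-fold changes were recovered, and 1 of 108 calls was false. The simulated counts followed the fitted spread and held no outlying library and no shift shared by many genes. These shares therefore need not hold for the real data. Promoters are RefSeq's on GRCm38.p6, read with Python 3.11.15. Intervals and floors cover counting error only. LMP2A transcripts were not analysed here. Single members of some lists, though counted, are not reported here.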

Additional observations from a re-analysis of the deposited data

How the results depend on the processing

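The counts of genes outside the immunoglobulin loci were recomputed under 12 other settings and without each library. Leaving out 1 library gave 764 to 1212 calls in all, 365 to 491 higher and 394 to 727 lower. With scaling by library size alone 2381 genes passed, 2009 higher and 372 lower, and 1059 of the 1568 were shared. A mean of at least 5 CPM gave 938 calls, 477 of them lower; an adjusted p under 0.01 gave 611, of which 302 were higher and 309 lower; a change of at least 2-fold left 399 higher. DESeq2's Wald test called 1348 lower genes. With only the 6 libraries in the fit 1866 of 13587 genes passed, 873 higher and 993 lower. With the replicate block 1873 genes passed, 693 higher and 1180 lower; the replicate numbers name different mice. None of the 195 named genes that passed reversed its direction, and 113 of them passed in all 6 fits without 1 library. Both numbers include the immunoglobulin genes Igha, Ighg1, Ighm and Iglc1. The cause of these shifts was not tested, beyond the smaller number of libraries or genes in some settings. With 3 mice a group and the recovery given for 2-fold changes in simulated data, a gene that did not pass may still differ.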
